A study of Mus musculus with 12 samples.

Results

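NRF2 is the transcription factor through which cells answer oxidants and reactive electrophiles, and 10 genes were followed here, the gene that encodes it (Nfe2l2) and 9 known targets, Nqo1, Hmox1, Gclm, Gclc, Txnrd1, Srxn1, Slc7a11, Gsta4 and Osgin1. The genes were picked by symbol, and each of the 10 was found as 1 line among the 23282 lines of the count table. All 10 passed the filter on low counts, which left 13464 genes for testing. MC38, a mouse colon carcinoma line, had been implanted subcutaneously in the right flank of female C57BL/6 mice of 6 weeks, labelled WT, and tumor RNA was sampled on day 19. The 4 groups held 3 tumors each. Con received vehicle and IgG2a antibody. SFIH received IgG2a antibody and a fraction of Inula helenium rich in sesquiterpene lactones at 50 mg/kg daily. PD received 200 μg of anti-PD-1 antibody 2 times a week, and Comb received the fraction and anti-PD-1 antibody. All were given by intraperitoneal injection. No untreated tumor and no group given 1 purified lactone was among the 12.

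In unstressed cells, the adaptor KEAP1 binds NRF2 and passes it to a ubiquitin ligase for degradation. Electrophiles that modify cysteines of KEAP1 let NRF2 accumulate, pair with small MAF proteins and bind antioxidant response elements in its target genes. BACH1 competes with NRF2 for these elements and is known best as a repressor of Hmox1. The targets supply cystine (Slc7a11), make glutathione (Gclc and Gclm), use it to conjugate lipid aldehydes (Gsta4), reduce thioredoxin (Txnrd1) and oxidized peroxiredoxins (Srxn1), detoxify quinones (Nqo1) and break down heme (Hmox1), while Osgin1 is a stress-induced growth inhibitor. Much of NRF2 control acts on the protein, so Nfe2l2 mRNA is not a measure of its activity.

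RefSeq promoter windows of build GRCm38.p6, from 250 bases before to 50 after a start site, were matched by symbol for 7 of the 10 genes: Nfe2l2, Srxn1, Slc7a11, Gclm, Nqo1, Osgin1 and Txnrd1. The core of the antioxidant response element, TGACNNNGC, was searched on both strands and was found for 4 of the 7 genes, in 4 of their 9 windows, while 12.4% of all 32851 windows and 14% of all 27025 genes held it. It was also found for 21.7% of 83 other genes of the pathway described below. None of the 4 matches overlapped TGACTCA, the AP-1 site. The stretches of Gclm and Txnrd1 are shown in full up to the start, because these genes gave the clearest difference with SFIH, and short stretches are shown for the other genes with a match. Letters in capitals mark the match, which stands on the opposite strand in Gclm, Txnrd1 and Srxn1.
Gclm, chr3:122245307-122245556, plus strand, match from 134 bases before the start: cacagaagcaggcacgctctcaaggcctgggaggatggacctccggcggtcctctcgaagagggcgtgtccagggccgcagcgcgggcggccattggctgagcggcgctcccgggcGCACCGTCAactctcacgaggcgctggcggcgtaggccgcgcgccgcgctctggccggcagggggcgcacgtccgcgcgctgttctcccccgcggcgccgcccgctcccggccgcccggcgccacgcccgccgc
Txnrd1, the 1 of its 3 windows with a match, chr10:82858956-82859205, plus strand, match from 92 bases before the start: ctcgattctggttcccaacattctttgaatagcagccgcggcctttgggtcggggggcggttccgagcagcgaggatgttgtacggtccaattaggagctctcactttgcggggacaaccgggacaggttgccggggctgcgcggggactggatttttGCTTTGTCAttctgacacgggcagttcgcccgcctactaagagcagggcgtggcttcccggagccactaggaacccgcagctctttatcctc
Nfe2l2, chr2:75704854-75704913, minus strand, match from 240 bases before the start: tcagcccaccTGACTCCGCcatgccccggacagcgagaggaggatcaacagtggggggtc
Srxn1, chr2:152105542-152105570, plus strand, match from base 29 after the start: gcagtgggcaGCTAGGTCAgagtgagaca
A match is a description of the letters. For Slc7a11, Nqo1 and Osgin1, these letters were not in the window searched.

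The libraries held 7870741 to 12261032 gene counts. Levels are given as CPM, the count relative to library size after scaling by TMM, which corrects for a few abundant genes taking up a library, and since the libraries copied 3′ ends, they were not divided by gene length. Markers of colon epithelium were scarce, with a summed level of 4.79 to 27.8 CPM over 9 genes (Krt8, Krt18, Krt19, Krt20, Krt7, Epcam, Cdh1, Vil1 and Cdx2) in 11 tumors, and Cdx2 had at most 1 count in any tumor. PD replicate 2 had the fewest counts and the highest share of Rn45s, a ribosomal RNA precursor, at 17.1% against 4.28% to 14.1% in the others. Comb replicate 3 stood apart from the rest in its markers. In this tumor, 7 skeletal muscle markers summed to 6343 CPM against 3.54 to 623 in the other 11, 5 skin markers to 268 against 3.75 to 27.3, 11 macrophage and monocyte markers to 13719 against 516 to 3713, 6 fibroblast markers to 22665 against 990 to 11681, and the 9 epithelial markers to 145. Pdgfra of the fibroblasts and Vil1 of the epithelium went the other way, at 56.9 and 0 CPM against medians of 73.2 and 2.01 in the others. In bulk tumor RNA, fewer cells of a type and less RNA per cell cannot be told apart.

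Across the 12 tumors, the genes differed in which tumors were high or low. SFIH replicate 1 had the highest level of 4 of the 10 genes (Nqo1, Gclc, Srxn1 and Osgin1), PD replicate 2 that of 3 (Hmox1, Gclm and Gsta4), and Comb replicate 3 the lowest level of 6 (Nqo1, Gclm, Gclc, Txnrd1, Slc7a11 and Gsta4) with the highest of Nfe2l2. The part of the Rn45s share and depth of PD replicate 2 in its values was not tested. Over the 45 pairs of genes, Spearman's rho across the 12 tumors was between -0.36 and 0.94 with a median of 0.23, or 0.27 without Comb replicate 3. The highest value was that of Gclm with Txnrd1, which was 0.93 without Comb replicate 3, so these genes had nearly the same order of tumors. These values are descriptive, and the levels of both genes of a pair come from the same libraries with the same scaling factors.

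**Figure D1:**
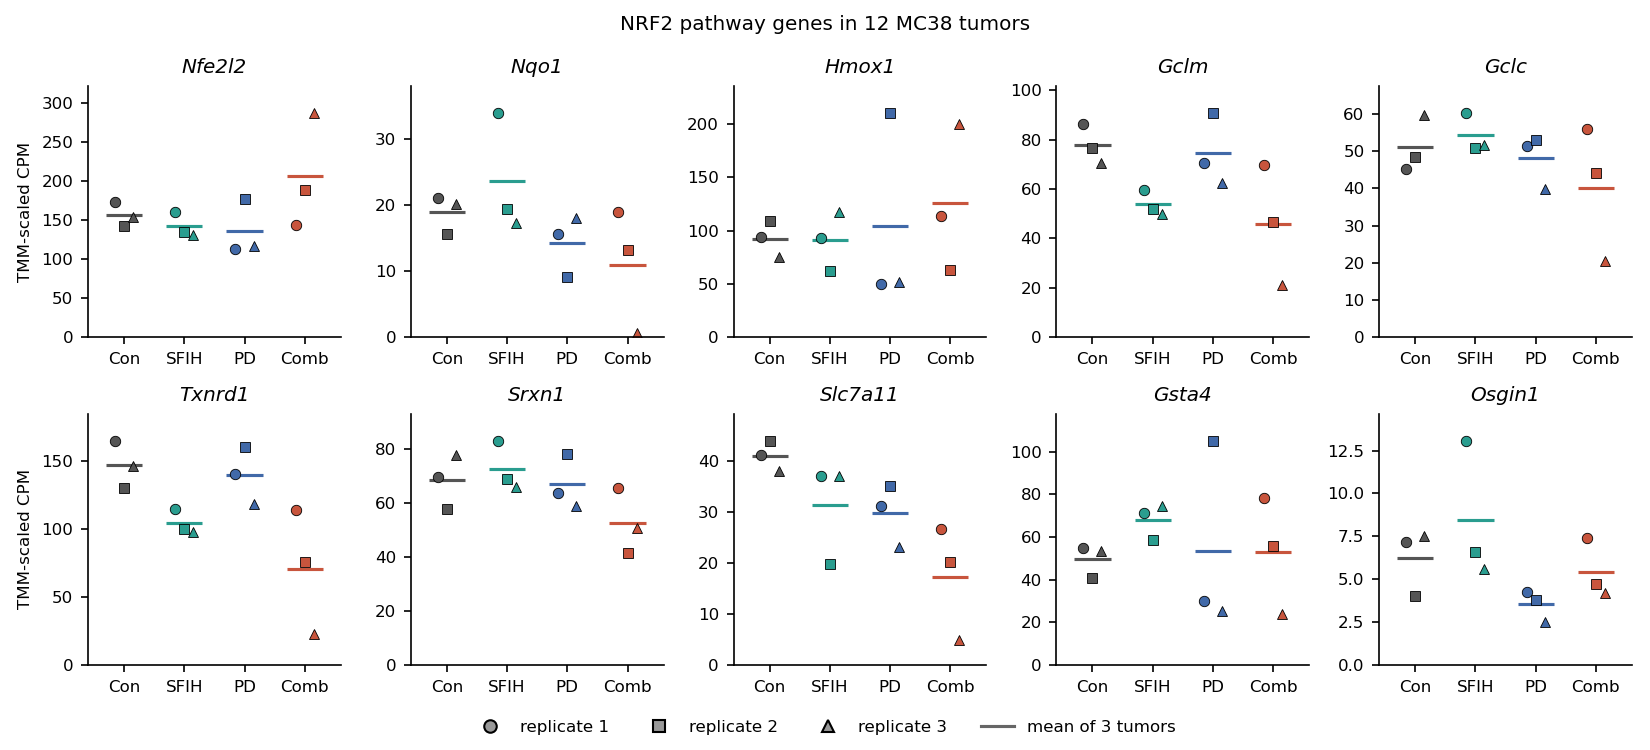
TMM-scaled CPM (vertical axis, from 0) of the 10 genes in the tumors of the 4 groups, with a symbol for each replicate and a line at the mean of 3 tumors. Txnrd1 and Gclm lie lower in SFIH than in Con, and Comb replicate 3 is at 0.599 CPM for Nqo1 and at 287 CPM for Nfe2l2.

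Nfe2l2 itself was measured at 173, 142 and 154 CPM in the Con tumors, 159.7, 135 and 130.2 in the SFIH tumors, 113, 177 and 117 in the PD tumors and 143, 188 and 287 in the Comb tumors, for replicates 1, 2 and 3. The groups overlapped in every comparison, and the highest value was that of Comb replicate 3. Its log2 fold change was -0.14 ± 0.26 (standard error) from Con to SFIH, -0.20 ± 0.26 from Con to PD and 0.40 ± 0.26 from Con to Comb (edgeR, adjusted p = 0.9998, 0.9998 and 0.342). With each tumor left out in turn, it ranged from -0.24 to -0.06 in SFIH and from -0.44 to -0.09 in PD. Comb exceeded PD by 0.60 ± 0.26 (edgeR, adjusted p = 0.266). Leaving out Comb replicate 3, Comb exceeded Con by 0.09 (edgeR, adjusted p = 0.859) and PD by 0.29. Keap1, which encodes the adaptor that degrades NRF2, was at 88.8 to 109 CPM in the Con tumors, 83.7 to 94.8 in the SFIH tumors, 67.9 to 104 in the PD tumors and 84.2, 85.8 and 41.4 in the Comb tumors. All Comb tumors lay below all Con tumors for Keap1, as they did for 13% of all genes, by -0.46 ± 0.26 on the log2 scale (edgeR, adjusted p = 0.286), and by -0.19 without Comb replicate 3. Bach1, the repressor, ranged from 20.3 to 25.3 CPM among the Con tumors and from 20.3 to 24.1 among the SFIH tumors, with 20.1, 51.0 and 25.6 in the PD tumors and 31.8, 43.8 and 98.7 in the Comb tumors. Comb lay above Con without overlap, as did 11.7% of all genes, by 1.36 ± 0.42 on the log2 scale (edgeR, adjusted p = 0.0876, and 0.0210 by DESeq2), and by 0.74 without Comb replicate 3 (edgeR, adjusted p = 0.245). Nfe2l1, a relative of Nfe2l2, differed by -0.40 to 0.13 on the log2 scale in the 5 comparisons of 2 groups, and by -0.06 from Con to Comb without Comb replicate 3.

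The glutathione branch begins with Slc7a11, the cystine transporter subunit xCT. It stood at 41.0, 43.9 and 37.9 CPM in the Con tumors, 36.9, 19.8 and 37.1 in the SFIH tumors, 31.1, 35.0 and 23.2 in the PD tumors and 26.6, 20.2 and 4.79 in the Comb tumors. Every treated tumor was below every Con tumor, as in 0.973% of all genes, closely so in SFIH, where the highest value was 37.1 CPM against 37.9 for the lowest Con tumor. The log2 fold change from Con was -0.39 ± 0.47 in SFIH, -0.46 ± 0.47 in PD and -1.25 ± 0.48 in Comb (edgeR, adjusted p = 0.9998, 0.9998 and 0.142). The value in SFIH was -0.15 without SFIH replicate 2, the lowest of its group. Without Comb replicate 3 that in Comb was -0.80 (edgeR, adjusted p = 0.164), and without Comb replicate 1 it was -1.70 (adjusted p = 0.0321). Slc3a2, which encodes the heavy chain that carries xCT to the membrane, was at 358 to 474 CPM in the Con tumors, 368 to 403 in the SFIH tumors, 262 to 409 in the PD tumors and 343, 231 and 76.7 in the Comb tumors, also with all Comb tumors below all Con tumors, as for 13% of all genes (log2 fold change -0.89 ± 0.41, edgeR, adjusted p = 0.200, and -0.49 without Comb replicate 3).

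Glutamate cysteine ligase, the rate-limiting enzyme of glutathione synthesis, has a modifier subunit (Gclm) and a catalytic subunit (Gclc). Gclm was at 86.4, 76.7 and 70.4 CPM in the Con tumors, 59.6, 51.9 and 50.0 in the SFIH tumors, 70.6, 90.8 and 62.4 in the PD tumors and 69.7, 46.6 and 21.0 in the Comb tumors. The SFIH tumors lay below all Con tumors with a clear gap, and Comb replicate 1 was just below the lowest Con tumor. The log2 fold change was -0.53 ± 0.34 from Con to SFIH, -0.06 ± 0.34 from Con to PD and -0.76 ± 0.34 from Con to Comb (edgeR, adjusted p = 0.9998, 0.9998 and 0.188), the last -0.42 without Comb replicate 3 (adjusted p = 0.298). Gclc was at 45.1, 48.3 and 59.8 CPM in the Con tumors, 60.2, 50.7 and 51.7 in the SFIH tumors, 51.4, 53.0 and 39.9 in the PD tumors and 55.9, 44.0 and 20.4 in the Comb tumors. The groups overlapped throughout, and only Comb replicate 3 lay far from the others. For Gclc the log2 fold change was 0.09 ± 0.30 from Con to SFIH and -0.35 ± 0.30 from Con to Comb, the latter -0.03 without Comb replicate 3. Whether Gclm and Gclc differed in their response was not tested.

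Gsta4 encodes a glutathione transferase for products of lipid peroxidation such as 4-hydroxynonenal. It was at 54.9, 40.7 and 53.3 CPM in the Con tumors, 71.4, 58.6 and 74.5 in the SFIH tumors, 30.1, 105.3 and 25.4 in the PD tumors and 78.5, 56.0 and 24.0 in the Comb tumors. It was the only one of the 10 genes whose SFIH tumors all lay above the Con tumors, with a log2 fold change of 0.46 ± 0.52 (edgeR, adjusted p = 0.9998). PD spread widely, with replicate 2 over 3 times either other tumor, and its log2 fold change from Con was 0.11 ± 0.52, -0.03 when scaled by library size alone and -0.84 without that replicate. For Comb against Con the values were 0.09 ± 0.52, -0.10 by library size alone and 0.44 without Comb replicate 3.

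In the thioredoxin branch, Txnrd1, the cytosolic thioredoxin reductase, was at 165, 129.9 and 146 CPM in the Con tumors, 115, 99.9 and 97.9 in the SFIH tumors, 141, 160.5 and 118 in the PD tumors and 114, 76.1 and 22.9 in the Comb tumors. All 6 tumors given SFIH were below all 6 tumors without it. The log2 fold change from Con was -0.50 ± 0.41 in SFIH, -0.07 ± 0.41 in PD and -1.05 ± 0.42 in Comb (edgeR, adjusted p = 0.9998, 0.9998 and 0.152), and Comb differed from PD by -0.98 ± 0.42 (adjusted p = 0.260). These Comb values were, without Comb replicate 3, -0.63 against Con and -0.56 against PD (edgeR, adjusted p = 0.135 and 0.532). Txnrd2, the mitochondrial reductase, had 4.79 to 10.5 CPM in all 12 tumors, with a log2 fold change of 0.01 ± 0.34 from Con to SFIH and -0.53 ± 0.34 from Con to Comb, the latter -0.34 without Comb replicate 3. Srxn1 encodes sulfiredoxin, which repairs overoxidized peroxiredoxins. It was at 69.5, 57.7 and 77.6 CPM in the Con tumors, 83.0, 68.9 and 65.7 in the SFIH tumors, 63.7, 78.2 and 58.8 in the PD tumors and 65.3, 41.5 and 50.8 in the Comb tumors. It varied least of the 10 genes, by the ratio of its highest to its lowest tumor. Comb lay below SFIH without overlap, by -0.46 ± 0.21 on the log2 scale (edgeR, adjusted p = 0.262), and Con to SFIH gave 0.09 ± 0.21.

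Nqo1, a quinone reductase and the usual reporter of NRF2 activity, was at 21.0, 15.5 and 20.2 CPM in the Con tumors, 33.9, 19.5 and 17.3 in the SFIH tumors, 15.7, 9.11 and 18.1 in the PD tumors and 18.9, 13.2 and 0.599 in the Comb tumors. SFIH replicate 1 was the highest of all tumors, and the other 2 SFIH tumors lay within the range of Con. The log2 fold change from Con to SFIH was 0.32 ± 0.73 (edgeR, adjusted p = 0.9998) and -0.05 without SFIH replicate 1. Comb replicate 3 had 5 counts of Nqo1, where the other tumors had 67 to 467, so that its level was 3.31% of the median of the other 11. From Con to Comb the log2 fold change was -0.79 ± 0.74 (adjusted p = 0.499) and -0.23 without Comb replicate 3. Osgin1 resembled Nqo1 in that SFIH replicate 1 was its highest tumor. It was at 7.19, 4.01 and 7.49 CPM in the Con tumors, 13.1, 6.61 and 5.62 in the SFIH tumors, 4.27, 3.81 and 2.497 in the PD tumors and 7.38, 4.71 and 4.19 in the Comb tumors, from 25 to 180 counts per tumor. Its log2 fold change from Con was 0.44 ± 0.42 in SFIH, -0.03 without SFIH replicate 1, and -0.82 ± 0.43 in PD (edgeR, adjusted p = 0.9998), where the lowest Con tumor overlapped the PD range.

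Hmox1 encodes heme oxygenase 1, which breaks down heme and is also high in macrophages that take up red cells. It was at 93.5, 109 and 75.2 CPM in the Con tumors, 93.0, 62.0 and 117 in the SFIH tumors, 49.7, 210.4 and 51.4 in the PD tumors and 114, 62.5 and 199.8 in the Comb tumors. The groups overlapped in every comparison, and the PD and Comb groups spread most. Its log2 fold change from Con was -0.03 ± 0.56 in SFIH, 0.17 ± 0.56 in PD and 0.44 ± 0.56 in Comb (edgeR, adjusted p = 0.9998, 0.9998 and 0.612). Without PD replicate 2 the value in PD was -0.87, and without Comb replicate 3 that in Comb was -0.07. The high tumors, PD replicate 2 and Comb replicate 3, also had the highest sums of 6 erythroid markers, mainly hemoglobin, at 1532 and 2423 CPM, while the other tumors had 65.1 to 955. Alas2 of this list went the other way in Comb replicate 3, at 0.958 CPM against a median of 1.96 in the others. The erythroid sums ranged over 204 to 339 CPM in the Con tumors, 126 to 955 in the SFIH tumors, 65.1 to 1532 in the PD tumors and 206 to 2423 in the Comb tumors. Macrophage and monocyte markers summed to 516 to 865 CPM in the Con tumors, 917 to 1011 in the SFIH tumors, 969, 1934 and 1269 in the PD tumors and 1263, 3713 and 13719 in the Comb tumors, with all 11 detected. Their part in the Hmox1 values was not tested. Hmox2, the constitutive heme oxygenase, was at 75.1 to 88.9 CPM in Con and 94.4, 113 and 155.6 in Comb. These groups did not overlap, as for 11.7% of all genes on the higher side. The log2 fold change of Hmox2 was 0.56 ± 0.19 (edgeR, adjusted p = 0.109, and 0.0400 by DESeq2), and 0.34 without Comb replicate 3.

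**Figure D2:**
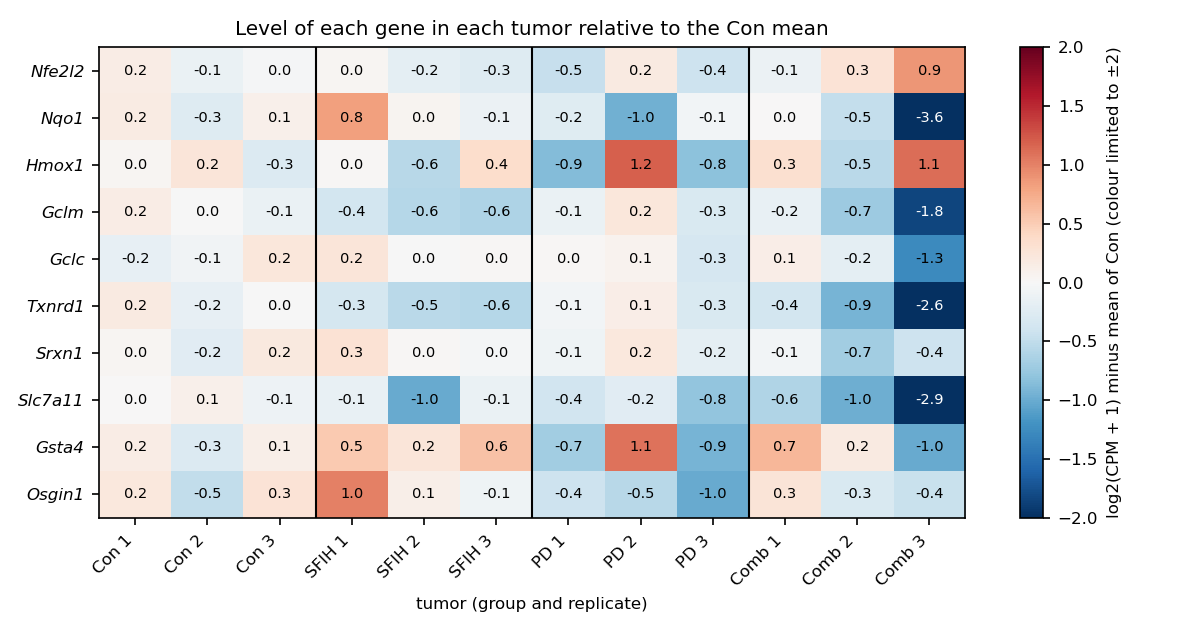
Level, as log2(CPM + 1), of the 10 genes (rows) in the 12 tumors (columns) minus the mean of Con, with the colour scale limited to ±2. Comb replicate 3 is blue for most target genes and red for Nfe2l2 and Hmox1, and Gclm and Txnrd1 are below 0 in all SFIH and Comb tumors.

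The first comparison asks what SFIH alone did to these genes. No gene of the table passed the threshold between Con and SFIH (percent called 0, edgeR, adjusted p under 0.05), against 303 genes with an unadjusted p under 0.05 and 4 by DESeq2. None of the 10 genes was among these 303, which were 2.25% of those tested. Gclm, Txnrd1 and Slc7a11 lay below Con without overlap, as did 8.86% of all genes tested, and Gsta4 lay above it, as did 8.55%. The exact permutation test gave 0.1 for each of the 4, two-sided, which is the smallest p for 3 tumors against 3. The median log2 fold change of the 10 genes was 0.03, beside 0.02 over all genes, with 5 values above 0 and 5 below, beside 53% and 47% of all genes. The standard errors of the single genes were 0.21 to 0.73. In the fit without Comb replicate 3, whose spread enters the fit of all groups, 2 of the 10 genes were lower in SFIH at an unadjusted p under 0.05, beside 4.01% of all genes lower and 7.49% in either direction, and 0 genes were called.

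For anti-PD-1 alone, 0 of 13464 genes passed the threshold (edgeR, percent called 0), with 537 at an unadjusted p under 0.05 and 6 by DESeq2. None of the 10 genes reached an unadjusted p under 0.05, where 3.99% of all genes did. Only Slc7a11 did not overlap Con, on the lower side, as did 9.4% of all genes. Fitted values were below 0 for 8 of the 10 genes, beside 48.3% of all genes, with a median of -0.08 against 0.01.

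In the combined treatment, 3 of the 10 genes, Slc7a11, Txnrd1 and Gclm, had an unadjusted p under 0.05 from Con to Comb, all lower, beside 7.3% of all genes. They were also the 3 that lay below Con without overlap, beside 13% of all genes (exact permutation p = 0.1 for each). No gene passed the adjusted threshold in edgeR (percent called 0 for Con to Comb), with 3406 at an unadjusted p under 0.05 and 1998 by DESeq2, in which the 3 genes had adjusted p-values of 0.0677, 0.0845 and 0.139. Fitted values were below 0 for 7 of the 10 genes, beside 52% of all genes, with a median of -0.36 against -0.03. Without Comb replicate 3, 2 of the 10 had an unadjusted p under 0.05, both lower, beside 7.43% of all genes lower and 18.8% in either direction, and the median was -0.15. Without Comb replicate 1, the tumor of the group closest to Con in these 3 genes, Slc7a11, Txnrd1 and Gclm passed the adjusted threshold with log2 fold changes of -1.70, -1.56 and -1.20 (edgeR, adjusted p = 0.0321, 0.0191 and 0.0198), in a fit that called 3943 genes in all. Marker sums moved with the group, with macrophage and monocyte markers at 1263 to 13719 CPM over the Comb tumors, overlapping those of PD (969 to 1934) and above those of Con and SFIH, and fibroblast markers at 2896 to 22665. Muscle markers summed to 623 CPM in Comb replicate 1, 6.21 in replicate 2 and 6343 in replicate 3. Their part in these values was not tested.

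The comparison of PD with Comb asks what SFIH added to the antibody. No gene was called (edgeR, percent called 0), against 2424 with an unadjusted p under 0.05 and 417 by DESeq2. At that unadjusted level, Txnrd1 was lower (5.11% of all genes) and Nfe2l2 higher (12.9%), and of the 10 genes Txnrd1 was the one without overlap, below PD, as were 8.06% of all genes. Fitted values were below 0 for 7 of the 10 genes, beside 50.2% of all genes, with a median of -0.30. In the fit without Comb replicate 3, 5 were below 0 and 5 above, with a median of -0.09, and Nfe2l2 no longer had an unadjusted p under 0.05. From SFIH to Comb, where 0 genes were called (edgeR, percent called 0, with 2559 unadjusted and 1157 by DESeq2), Srxn1 was lower at an unadjusted p under 0.05 and without overlap, as were 4.22% and 8.58% of all genes, and lost the former without Comb replicate 3, at a log2 fold change of -0.44. Each group enters more than 1 comparison, so the comparisons share tumors and are not independent.

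**Figure D3:**
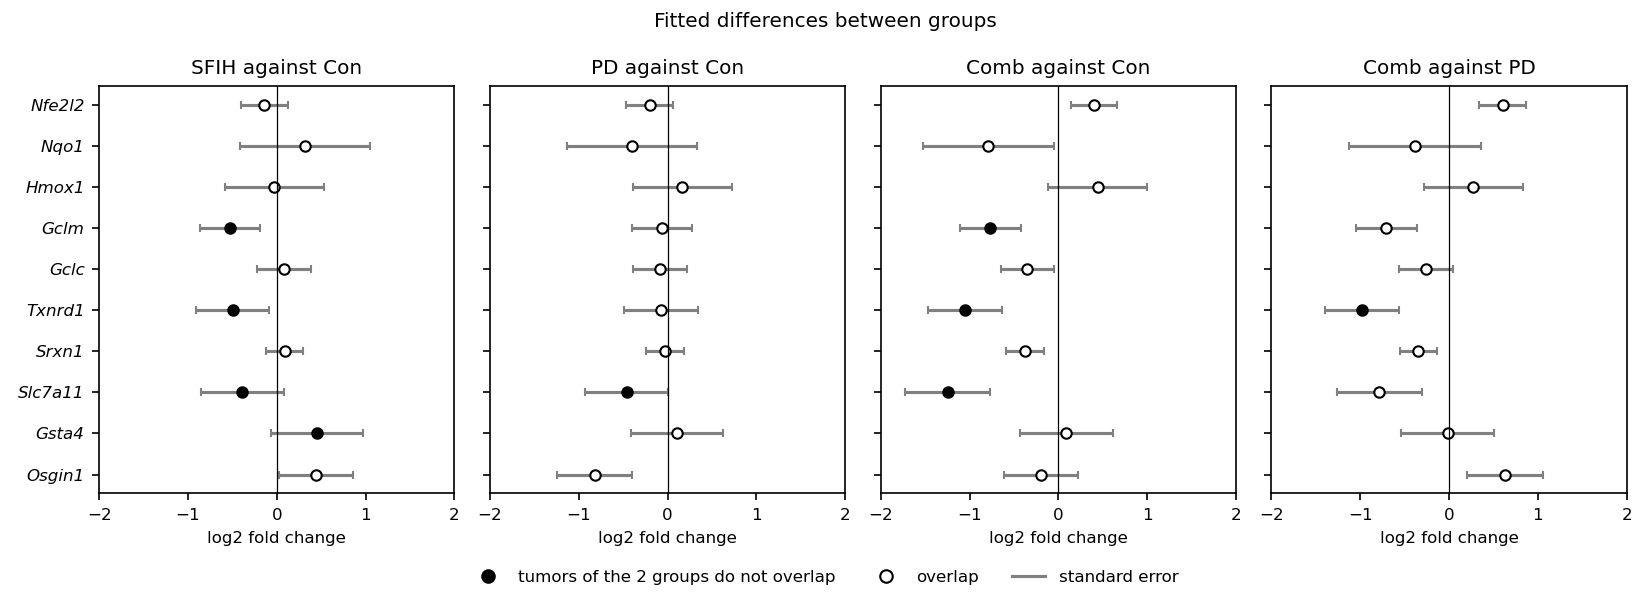
Log2 fold change (horizontal axis) of the 10 genes in 4 comparisons, with the standard error as a bar. Filled points mark genes whose groups do not overlap, which are Gclm, Txnrd1, Slc7a11 and Gsta4 for SFIH, Slc7a11 for PD, and Slc7a11, Txnrd1 and Gclm for Comb, each against Con, and Txnrd1 for Comb against PD.

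Txnrd1 and Gclm gave the smallest permutation p of the 10 genes when the 6 tumors with SFIH, alone or with antibody, were set against the 6 without. Txnrd1 was at 118, 144 and 165 CPM (lowest, median and highest) without SFIH and at 22.9, 98.9 and 115 with it. The groups did not overlap, which on this side held for 1.75% of all genes. The exact permutation test gave p = 0.00216, two-sided, the smallest that 6 tumors against 6 can give and reached by 326 genes, or an adjusted p of 0.0894 over all genes. This test exchanged tumors across all 4 groups and did not keep those with and without anti-PD-1 apart. Gclm was at 62.4, 73.7 and 90.8 CPM without SFIH and at 21.0, 50.9 and 69.7 with it, overlapping by Comb replicate 1 alone (exact permutation p = 0.00433, adjusted p = 0.111). In the edgeR fit, the log2 fold change was -0.74 ± 0.29 for Txnrd1 and -0.62 ± 0.24 for Gclm (adjusted p = 0.323 and 0.319). No gene was called in that comparison (percent called 0, with 1953 at an unadjusted p under 0.05 and 268 by DESeq2), and 5.4% of all genes were lower at an unadjusted p under 0.05. Without Comb replicate 3, the differences in mean log2(CPM + 1) went from -0.86 to -0.51 for Txnrd1 (exact permutation p = 0.00433) and from -0.68 to -0.45 for Gclm (exact permutation p = 0.0108). On library size alone, without TMM, the Txnrd1 groups overlapped, with 129 CPM in the highest tumor with SFIH and 124 in the lowest without (exact permutation p = 0.00433). Slc7a11 was at 23.2, 36.4 and 43.9 CPM without SFIH and at 4.79, 23.4 and 37.1 with it, a difference in mean log2(CPM + 1) of -0.72 (exact permutation p = 0.0887), or of -0.34 without Comb replicate 3 (exact permutation p = 0.167). For the other 7 genes the permutation p was 0.186 to 0.814. The usual reporter Nqo1 had a median of 16.9 CPM without SFIH and 18.1 with it. Cell type markers also differed between these sets of tumors. With all tumors, 10 of 11 macrophage and monocyte, 7 of 7 muscle and 3 of 3 tested adipocyte markers were higher with SFIH. This was at an unadjusted p under 0.05 (edgeR), beside 9.11% of all genes, and no marker of these lists had a fitted value below 0. Their part in the values of Txnrd1 and Gclm was not tested.

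**Figure D4:**
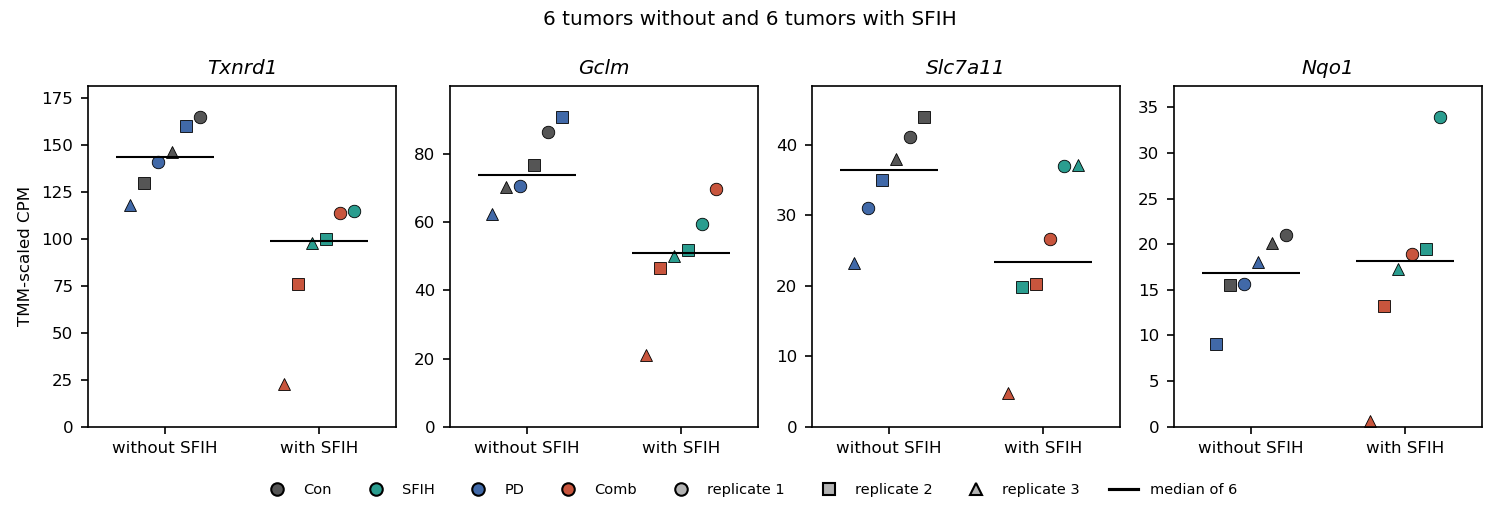
TMM-scaled CPM (vertical axis, from 0) of Txnrd1, Gclm, Slc7a11 and Nqo1 in the 6 tumors without SFIH (Con and PD) and the 6 with it (SFIH and Comb), sorted within each set, with the median as a line. For Txnrd1, the highest tumor with SFIH, at 115 CPM, is below the lowest without, at 118 CPM.

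Whether SFIH acted differently with and without the antibody was tested as an interaction. No gene was called (edgeR, percent called 0, with 344 at an unadjusted p under 0.05 and 1 by DESeq2), and none of the 10 genes reached an unadjusted p under 0.05, beside 2.55% of all genes. Nfe2l2 came nearest, at 0.74 ± 0.37 on the log2 scale (edgeR, adjusted p = 0.894), and Txnrd1 and Gclm were at -0.48 ± 0.59 and -0.17 ± 0.48. The values were 0.43 for Nfe2l2, -0.06 for Txnrd1 and 0.17 for Gclm without Comb replicate 3 (edgeR, adjusted p = 0.9998 for each).

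Beyond the 10 genes, 6 lists with 94 other genes of the pathway were read from the same fits, and 85 of them were tested. No gene of these lists passed the adjusted threshold in any of the 7 comparisons with edgeR. From Con to SFIH, 55 of the 85 had fitted values above 0, beside 53% of all genes, with a median of 0.08 against 0.02. None of them had an unadjusted p under 0.05, while in the fit without Comb replicate 3, 4 were higher and 5 lower, beside 3.48% and 4.01% of all genes. Between the tumors with and without SFIH, 17 were higher and 3 lower at an unadjusted p under 0.05, beside 9.11% and 5.4% of all genes, and 12 and 5 without Comb replicate 3, beside 7.25% and 8.3%. Glucose-6-phosphate dehydrogenase (G6pdx), which supplies NADPH, gave 39.8 to 43.2 CPM in the Con tumors, 46.1 to 55.1 in the SFIH tumors, 32.9 to 38.3 in the PD tumors and 44.4 to 53.9 in the Comb tumors, and all 6 tumors with SFIH were above all 6 without. That order held for 0.676% of all genes after TMM. On library size alone it did not hold for G6pdx. Comb replicate 3 had 450 of 10981028 counts, a smaller share than the 484 of 10023350 in Con replicate 3. G6pdx was picked as the smallest p of its list in this comparison. Its log2 fold change was 0.36 ± 0.11 (edgeR, adjusted p = 0.313, and 0.0394 by DESeq2, which called 2 of the 85 genes in this comparison, G6pdx and Gpx3). Biliverdin reductase B (Blvrb), downstream of heme oxygenase, was at 84.8 to 108 CPM in the Con tumors, 123 to 134 in the SFIH tumors, 86.1 to 113 in the PD tumors and 107 to 155 in the Comb tumors (0.41 ± 0.13, adjusted p = 0.313). Mitochondrial superoxide dismutase (Sod2) had 0.38 ± 0.14 in that comparison, and Rbx1, a subunit of the ligase that ubiquitinates NRF2, 0.45 ± 0.16, or 0.28 without Comb replicate 3 (edgeR, adjusted p = 0.319 and 0.317 with all tumors). In the opposite direction, malic enzyme (Me1), another source of NADPH, had 102 to 118 CPM in the Con tumors, 78.7 to 82.1 in the SFIH tumors, 73.0 to 80.0 in the PD tumors, and 65.6, 43.2 and 14.1 in the Comb tumors. Comb differed from Con by -1.39 ± 0.39 on the log2 scale (edgeR, adjusted p = 0.0739), and by -0.98 without Comb replicate 3 (adjusted p = 0.0880).

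From Con to Comb, 33 of the 85 genes were higher and 6 lower at an unadjusted p under 0.05, beside 18% and 7.3% of all genes, and 13 were higher and 6 lower without Comb replicate 3, beside 11.4% and 7.43%. DESeq2 called 18 of the 85 higher and 3 lower, beside 12% and 2.89% of all genes. By the unadjusted p of edgeR, 9 of 18 tested genes for detoxification and export were higher, 7 of 11 for heme and iron and 7 of 22 for glutathione synthesis and use, beside 18% of all genes. These counts were 2, 4 and 2 without Comb replicate 3, beside 11.4%. Gpx3, a secreted glutathione peroxidase, was at 17.7 to 24.7 CPM in Con and 65.4, 494 and 2018 in Comb (log2 fold change 5.37 ± 1.05, edgeR, adjusted p = 0.0665, and 3.74 without Comb replicate 3, adjusted p = 0.0882). Spic, a transcription factor of red pulp macrophages, was at 0.702 to 1.96 CPM in Con and 1.94, 10.0 and 8.15 in Comb, so that Comb replicate 1 overlapped Con. Its log2 fold change was 2.29 ± 0.66 (edgeR, adjusted p = 0.0751), and 2.12 without Comb replicate 3 (adjusted p = 0.149). Abcc3, an export pump, was at 0.268 to 1.14 CPM in Con, from 13, 8 and 3 counts, and at 2.43, 6.67 and 7.55 CPM in Comb. It differed by 2.89 ± 0.65 (edgeR, adjusted p = 0.0665), and by 2.60 without Comb replicate 3 (adjusted p = 0.102). Txnip, which binds and inhibits thioredoxin, had 24.9 to 58.1 CPM in Con and 52.7, 161 and 546 in Comb (2.61 ± 0.66, adjusted p = 0.0671), overlapping in 1 tumor, and 1.36 without Comb replicate 3 (adjusted p = 0.123). From PD to Comb, Mgst1, a microsomal glutathione transferase, had a log2 fold change of 1.76 ± 0.51 and Ftl1, the ferritin light chain, 1.09 ± 0.42 (edgeR, adjusted p = 0.243 and 0.247), with 0.87 and 0.33 without Comb replicate 3. Akr1c14, a steroid dehydrogenase, had the smallest p of the detoxification genes in that comparison but rested on 2, 3 and 2 counts in PD against 12, 14 and 106 in Comb, so no fold is given. Macrophage and fibroblast marker sums were highest in the same Comb tumors 2 and 3, and their part in these values was not tested. Pdgfra did not follow the fibroblast sum, at 63.9 to 81.8 CPM in Con and 54.9, 69.2 and 56.9 in Comb. From Con to PD, Sqstm1, which encodes the KEAP1-binding protein p62, had the smallest p of the regulators, with 538 to 579 CPM in the Con tumors, 434 to 561 in the SFIH tumors, 306 to 417 in the PD tumors and 281 to 459 in the Comb tumors (-0.68 ± 0.22, edgeR, adjusted p = 0.9998). The small MAF gene Maff had the smallest p of the regulators from Con to SFIH, at 16.5 to 24.3 and 25.8 to 36.8 CPM (0.58 ± 0.29, edgeR, adjusted p = 0.9998). Its groups did not overlap, as for 8.55% of all genes on the higher side.

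Slc7a11 is also a target of ATF4, the factor of the amino acid and unfolded protein responses, and a list of 15 such genes, read beside it, had mostly negative fitted values. Fitted values were below 0 for 10 of the 15 in SFIH, for 14 in PD and also for 14 in Comb, each compared with Con, beside 47%, 48.3% and 52% of all genes, with medians of -0.12, -0.32 and -0.64. The number in Comb was 11 without Comb replicate 3, with a median of -0.28. At an unadjusted p under 0.05, 3 of the 15 were lower in Comb, beside 7.3% of all genes, and none in SFIH or PD. In the fit without Comb replicate 3, 1 was lower in SFIH, 6 in PD and 4 in Comb, beside 4.01%, 4.59% and 7.43% of all genes. Ddit4, a stress-induced inhibitor of mTORC1, had the smallest p of the list in 6 of the 7 comparisons. It was at 566, 497 and 535 CPM in the Con tumors, 228, 264 and 341 in the SFIH tumors, 272, 295 and 266 in the PD tumors and 185, 79.0 and 35.5 in the Comb tumors. Every treated tumor was below every Con tumor, and every Comb tumor below every tumor of the other groups, orders that held for 0.973% and 1.59% of all genes, and both together for 11 of 13464. Me1, which is not in this list, showed both orders too. Ddit4 was picked as the lowest p of its list. Its log2 fold change was -0.94 ± 0.44 in SFIH, -0.94 ± 0.44 in PD and -2.41 ± 0.46 in Comb (edgeR, adjusted p = 0.9998, 0.9998 and 0.0665), the last -2.01 without Comb replicate 3 (adjusted p = 0.0547).

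**Figure D5:**
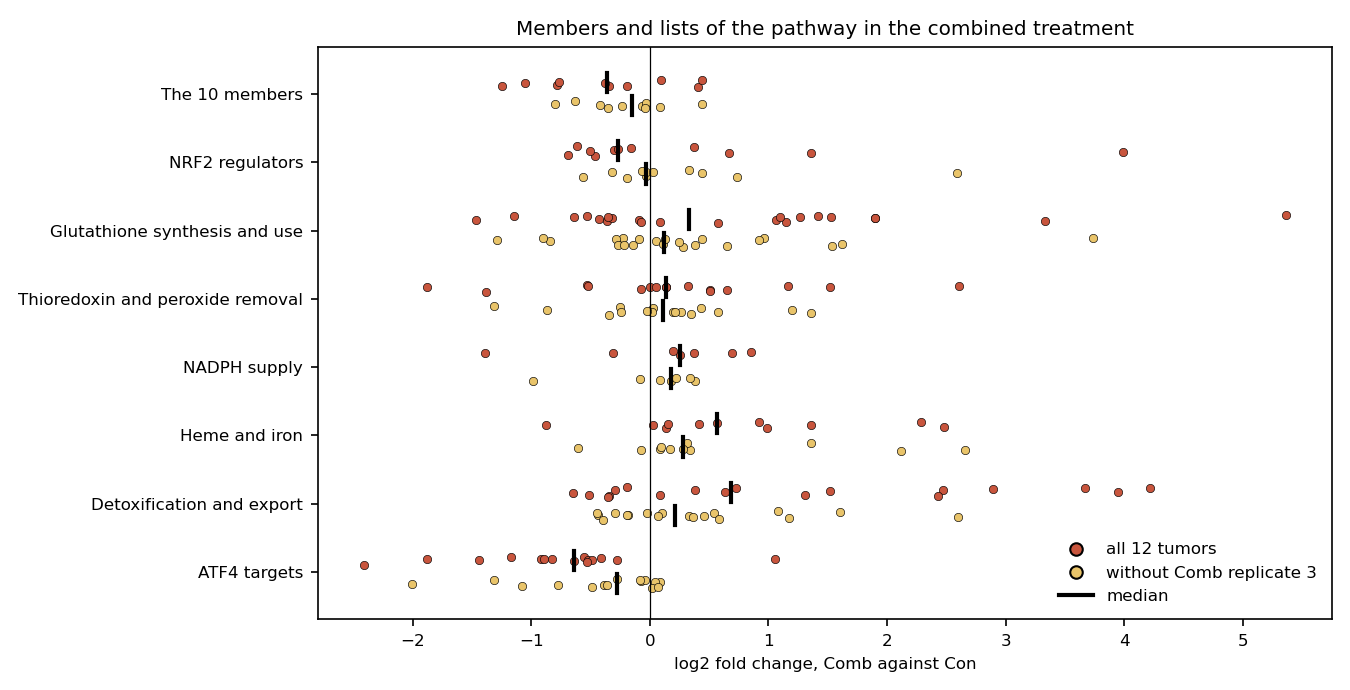
Log2 fold change from Con to Comb (horizontal axis) of the 10 genes and of the tested genes of 7 lists, 1 point for each gene, in the fit of all 12 tumors and in the fit without Comb replicate 3, with the median as a line. The 10 genes have a median of -0.36 with all tumors and -0.15 without Comb replicate 3.

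To place each gene in the table, the 3 genes with the most similar order of tumors were found among 10601 others with at least 50 counts on average, by Spearman's rho over the 12 tumors. These values describe the best of many candidates and carry no test. Nfe2l2 was followed most closely by Creg1 and 5730508B09Rik (rho 0.95 for both) and Ctsa (0.93), where Creg1 and Ctsa encode lysosomal proteins. Nqo1 was followed by Tmem238, Prep and the folate carrier Slc19a1 (0.97, 0.97 and 0.94), and Hmox1 by Smarcal1, Enah and St3gal1 (0.95, 0.90 and 0.90). For the glutathione genes, these were Ahcyl1, Diap3 and Ibtk for Gclm (0.97, 0.97 and 0.96), Chmp7, Procr and Slco4a1 for Gclc (0.97, 0.96 and 0.95), Tjp1, Pvr and the thioredoxin reductase gene Txnrd3 for Slc7a11 (0.93, 0.92 and 0.92), and Wdr18, Mrpl12 and Zfp442 for Gsta4 (0.97, 0.92 and 0.90). Txnrd1 was followed by Kpna3, Nvl and Ralgapa2 (0.97, 0.97 and 0.96), Srxn1 by Hs6st1, 2410131K14Rik and Heg1 (0.92 each), and Osgin1 by Dhdds, Serp2 and Acy1 (0.97, 0.90 and 0.89). Without Comb replicate 3 these values were between 0.87 and 0.97. None of the 10 genes was among the closest 3 of another, although Gclm and Txnrd1 had a rho of 0.94 with each other.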

How the data were processed

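The authors deposited raw read counts per gene symbol for 12 tumors, made from QuantSeq 3′ mRNA-Seq libraries (NextSeq 500, single-end reads). The aligner, counter, build and annotation are not given in the sources used here. Columns were assigned to groups from their names and the sample labels. The labels do not say which tumors were handled together, and p-values measure the spread between tumors. All 12 tumors entered 1 fit in R 4.3.3 with edgeR 4.0.16 (filterByExpr, TMM, a coefficient per group, quasi-likelihood test, two-sided, Benjamini-Hochberg adjustment over 13464 genes, threshold 0.05). No replicate block was used, because the labels and methods do not say that equal numbers pair tumors. In same-numbered pairs of tumors, the deviations from the group means correlated at -0.34 to 0.45, with 6 of the 18 pairs above 0.1. Levels are log2(CPM + 1) after TMM, with exact permutation tests. DESeq2 1.42.0 and other settings were alternatives, and figures used Python 3.11.15 and matplotlib 3.10.9. Replicate columns differed by more than counting noise. The steps were tested on simulated data. The members and lists were chosen with earlier results of these data known. Named genes were the 10 members, 6 partners and paralogs, the 3 most similar genes of each member and, from each list, the gene with the smallest p in a comparison where none was called.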

Additional observations from a re-analysis of the deposited data

How the results depend on the processing

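Calls depended on the tool and on single Comb tumors. DESeq2 called 4 genes from Con to SFIH, 6 from Con to PD and 1998 from Con to Comb, 417 from PD to Comb, 1157 from SFIH to Comb, 268 with against without SFIH and 1 in the interaction, where edgeR called 0, but no member in any of these. With each tumor left out in turn, edgeR called 0 to 3943 genes from Con to Comb (5 without Comb replicate 3), 0 to 2100 from PD to Comb, 0 to 3118 from SFIH to Comb and 0 to 281 with against without SFIH, with the highest count without Comb replicate 1 in each, and 0 throughout in the others. In the fit without Comb replicate 1, Gclm and Txnrd1 also passed from PD to Comb (adjusted p = 0.0395 and 0.0378). The replicate block changed no call, and in it Gsta4 reversed to -0.059 from Con to PD, -0.026 from Con to Comb and 0.033 from PD to Comb. No label makes equal numbers a pair. Without TMM, Gsta4 was at -0.035 from Con to PD and -0.10 from Con to Comb, and its mean level differed by -0.042 from PD to Comb. With at least 50 counts on average it was 0.0077 from PD to Comb. Without Comb replicate 3, the difference in level with against without SFIH was 0.27 for Nqo1 and 0.084 for Gclc. Log2 fold changes whose sign changed with 1 tumor left out ranged as follows. From Con to SFIH they were -0.049 to 0.50 (Nqo1), -0.25 to 0.18 (Hmox1), -0.0042 to 0.21 (Gclc), -0.029 to 0.18 (Srxn1) and -0.034 to 0.66 (Osgin1). From Con to PD they were -0.87 to 0.50 (Hmox1), -0.23 to 0.044 (Gclm), -0.18 to 0.033 (Gclc), -0.18 to 0.025 (Txnrd1), -0.15 to 0.065 (Srxn1) and -0.84 to 0.44 (Gsta4). From Con to Comb they were -0.066 to 0.75 (Hmox1) and -0.30 to 0.44 (Gsta4). From PD to Comb they were -1.03 to 0.16 (Nqo1), -0.23 to 1.296 (Hmox1), -0.56 to 0.056 (Gclc) and -0.40 to 0.92 (Gsta4). From SFIH to Comb they were -0.038 to 0.78 (Hmox1) and -0.66 to 0.11 (Gclm). With against without SFIH they were -0.36 to 0.24 (Nqo1), -0.13 to 0.63 (Hmox1) and -0.24 to 0.071 (Gclc). In the interaction they were -0.20 to 1.32 (Hmox1), -0.59 to 0.17 (Gclm), -0.83 to 0.049 (Slc7a11), -0.85 to 0.47 (Gsta4) and -0.074 to 0.67 (Osgin1). The cause of these changes was not tested. In no alternative of this kind did Txnrd1, Gclm or Slc7a11 change sign from Con to SFIH or from Con to Comb.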
